A study of Mus musculus with 19 samples.

Results

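The 9 genes described here are transcripts that mark epithelial cells of the lung and of stratified epithelia such as skin: Sftpc, Sftpb, Sftpa1, Sftpd, Scgb1a1, Scgb3a1, Krt14, Krt5 and Krt10. They were taken by gene name from the deposited expression table, which held 36682 genes, and all 9 were found. They were measured in bulk RNA of dorsal root ganglia, where the cell bodies of sensory neurons lie next to the spinal cord. They were selected on their counts in these libraries, in particular on the difference between AP20187 and vehicle in operated mice, and whether the choice also used the naive mice is not known. Their values in that comparison are therefore given as a description, with no test.

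For each mouse the L3, L4 and L5 ganglia were pooled, in operated mice those ipsilateral to the surgery, and 1 library was made per mouse. The side taken in naive mice, which had no surgery, is not given here. All mice were male and homozygous for the MaFIA transgene (macrophage Fas-induced apoptosis), an inducible Fas construct driven by the Csf1r promoter in macrophages and related myeloid cells and triggered by the dimerizing drug AP20187, so the vehicle groups carry it too. The 4 groups were mice 8 weeks after destabilization of the medial meniscus (DMM, a surgical model of knee osteoarthritis) with AP20187 (n = 5, mice 58 to 62) or vehicle (n = 5, mice 32 to 34, 63 and 64), and naive age-matched mice with AP20187 (n = 4, mice 1, 3, 4 and 5) or vehicle (n = 5, mice 1 to 5). Injections were intraperitoneal, daily, for 5 days. Ages are not given in the sources used here.

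Surfactant is the film of lipid and protein that keeps lung alveoli open, and alveolar type II cells make its proteins. Sftpb and Sftpc encode the small hydrophobic surfactant proteins B and C, and Sftpa1 and Sftpd encode the collectins A and D, which bind microbes. Secretoglobins are small secreted proteins. Scgb1a1 is the classical product of airway club cells, and Scgb3a1 is made by secretory cells of the larger airways. Krt5 and Krt14 encode the keratin pair of the basal layer of stratified epithelia, and Krt10 pairs with Krt1 in the layers of the epidermis above it. None of these cell types is part of a sensory ganglion. In bulk tissue, fewer cells of a type and less RNA per cell cannot be told apart.

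In the coordinates of the deposited table, whose build is GRCm39 per the submitters' processing notes, Sftpa1 (ENSMUSG00000021789, chromosome 14, 40853739 to 40858409) and Sftpd (ENSMUSG00000021795, chromosome 14, 40894171 to 40907106) are neighbours with 35761 bases between them. Sftpc (ENSMUSG00000022097) lies on the same chromosome at 70758389 to 70761521, and Sftpb (ENSMUSG00000056370) on chromosome 6 at 72281594 to 72291354. Krt10 (ENSMUSG00000019761, 99276080 to 99280190) and Krt14 (ENSMUSG00000045545, 100093988 to 100098374) both lie in the type I keratin region of chromosome 11, 813797 bases apart. Krt5 (ENSMUSG00000061527) is at 101615505 to 101621333 on chromosome 15. Scgb3a1 (ENSMUSG00000064057) is at 49554437 to 49555945 on chromosome 11, and Scgb1a1 (ENSMUSG00000024653) at 9061000 to 9065322 on chromosome 19.

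RefSeq promoter windows were at hand for 6 of the 9 genes. The 4 shown run from 250 bases before to 50 bases after the annotated start (build GRCm38.p6). They are the members with a window at their main start, and they include surfactant, secretoglobin and keratin genes. Capitals mark CTCAAG, a short form of the sequence bound by the lung transcription factor NKX2-1, and the TATA box TATAAA, each on either strand. The motifs were chosen after the sequences had been seen, and do not overlap each other in these windows.
Sftpb, chr6:72304360-72304659, plus strand: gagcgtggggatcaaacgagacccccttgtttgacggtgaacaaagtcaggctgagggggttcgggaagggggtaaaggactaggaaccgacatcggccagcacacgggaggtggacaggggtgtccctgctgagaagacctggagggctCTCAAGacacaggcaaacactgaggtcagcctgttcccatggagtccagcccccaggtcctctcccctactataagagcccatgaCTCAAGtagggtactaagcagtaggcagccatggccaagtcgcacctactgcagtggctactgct
Sftpa1, chr14:41131538-41131837, plus strand: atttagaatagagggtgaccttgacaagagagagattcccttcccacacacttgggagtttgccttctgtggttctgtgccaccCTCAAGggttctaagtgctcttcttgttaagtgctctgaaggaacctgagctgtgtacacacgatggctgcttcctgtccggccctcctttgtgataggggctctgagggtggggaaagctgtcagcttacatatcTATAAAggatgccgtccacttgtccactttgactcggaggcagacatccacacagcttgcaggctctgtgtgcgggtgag
Scgb3a1, chr11:49663345-49663644, plus strand: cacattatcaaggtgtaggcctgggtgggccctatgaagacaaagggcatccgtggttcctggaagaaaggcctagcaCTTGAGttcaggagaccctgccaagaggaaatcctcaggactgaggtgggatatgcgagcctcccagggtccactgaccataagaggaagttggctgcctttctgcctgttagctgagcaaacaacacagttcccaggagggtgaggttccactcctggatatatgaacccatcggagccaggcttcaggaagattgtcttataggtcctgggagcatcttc
Krt5, chr15:101712856-101713155, minus strand: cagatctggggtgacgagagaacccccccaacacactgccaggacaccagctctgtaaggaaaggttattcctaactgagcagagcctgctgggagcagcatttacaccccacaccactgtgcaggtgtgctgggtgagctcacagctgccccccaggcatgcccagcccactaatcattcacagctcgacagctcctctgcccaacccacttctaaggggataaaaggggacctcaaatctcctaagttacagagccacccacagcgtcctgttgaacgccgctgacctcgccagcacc
The Sftpb window held CTCAAG at 2 places, and the Sftpa1 and Scgb3a1 windows at 1 place each, in Scgb3a1 on the other strand, where it reads CTTGAG. The Sftpa1 window also held TATAAA, at 1 place. The Krt5 window held neither motif. Of 32851 windows of the same length, 15.9% held CTCAAG and 13.6% held TATAAA. A match is a description of the letters only. Nkx2-1 itself had counts in 5 of the 19 libraries, with 10 in DMM AP20187 60, 3 in DMM AP20187 62, 4 in DMM vehicle 32, 8 in DMM vehicle 34 and 4 in naive vehicle 1.

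Libraries held 60984830 to 74691396 counts in all, so 3 counts, taken as the floor of detection, were 0.0445 to 0.0504 CPM on average in a group. CPM is the count divided by library size after TMM scaling and multiplied by 1e6. The floors speak of counting error alone, because fragments were not tagged as single molecules. Among low values, a count of 4 was more frequent (16651 gene and library pairs) than 3 (7867) or 5 (5530). A count of 8 (9027) was likewise more frequent than 7 (4770) or 9 (3858), and 12 (6099) than 11 (3412) or 13 (2942). Thus 1 sequenced fragment may stand for more than 1 count, and where it stands for 4, the floor lies below 1 fragment. The folds given below as at least a value over the floor are then no strict lower bounds. The tissue label was borne out by its own markers: all 8 sensory neuron genes (Avil, Prph and others) and all 8 satellite and Schwann glia genes had over 3 counts in all 19 libraries. The sensory neuron genes nevertheless differed in level. They summed to 583 to 3220 CPM in DMM AP20187, lowest in mouse 58, to 2113 to 6455 in DMM vehicle, to 832 to 4362 in naive AP20187 and to 4085 to 6665 in naive vehicle, where mouse 4 was at 4448. By edgeR's test 5 of the 8 were lower with AP20187 in operated mice, where 12.4% of all genes were, and 0 of 8 in naive mice, where 2.57% were. The part of this shift, and of those next given, in the values of the 9 genes was not tested. Neutrophil granule genes, which mark bone marrow and blood granulocytes, summed to 16851 to 29150 CPM in DMM AP20187, 394 to 7696 in DMM vehicle, 8070 to 27539 in naive AP20187 and 837 to 2294 in naive vehicle. Skeletal muscle genes summed to 17.2 to 147, 14.2 to 1862, 1619 to 2504 and 12.3 to 430 CPM in the same order.

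All 9 genes were rare. Together they took 0.893 to 20.4 CPM without TMM scaling, with the lowest value in naive vehicle 1 and the highest in DMM AP20187 58. All 9 had counts in DMM AP20187 58, and 8 had counts in DMM AP20187 59 and 60. Outside the DMM AP20187 group, naive vehicle 4 had most, with 7 genes and 8.71 CPM on the same scale, while DMM vehicle 32 and naive vehicle 5 had counts of 2 genes each.

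**Figure D1:**
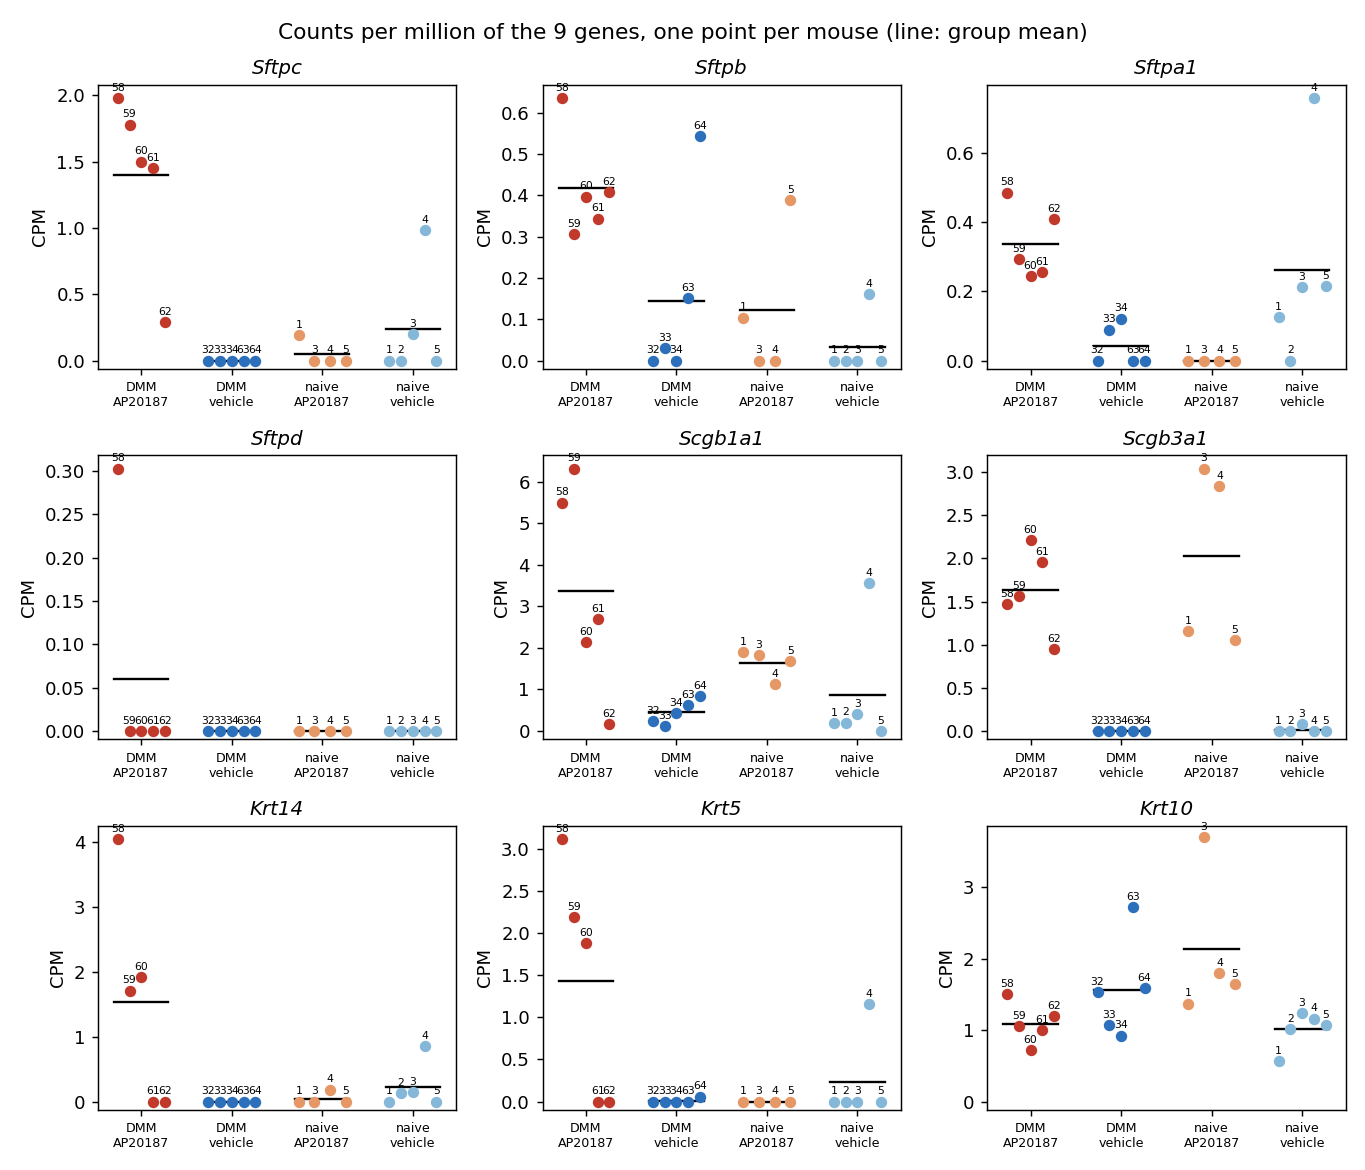
CPM of each gene (vertical axis, a separate linear scale per panel) in the 4 groups, with 1 point per mouse labelled by its number and a line at the group mean. Scgb3a1 was above 0.9 CPM in all 9 AP20187 libraries and at most 0.08 in vehicle, while Krt14 and Krt5 were high in DMM AP20187 58, 59 and 60 and in naive vehicle 4.

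Sftpc, the most restricted of the type II cell genes, was detected in every operated mouse given AP20187. Its counts there were 131, 122, 98, 97 and 17 in mice 58 to 62, and it was listed at 0 in all 5 DMM vehicle libraries. In naive mice it had 11 counts in AP20187 1 and 0 in the other 3, and with vehicle 15 in mouse 3, 61 in mouse 4 and 0 in mice 1, 2 and 5. The groups of operated mice did not overlap. The mean was 1.40 ± 0.659 CPM in DMM AP20187 (SD, n = 5), at least 31.0-fold above the floor of DMM vehicle. Naive vehicle 4 alone, at 0.984 CPM, lay within the range of DMM AP20187.

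Sftpa1 was also present in each operated mouse given AP20187, with 32, 20, 16, 17 and 24 counts in mice 58 to 62. In DMM vehicle it had 6 counts in mouse 33, 8 in mouse 34 and 0 in mice 32, 63 and 64, so the ranges did not overlap. The naive groups went the other way: it was listed at 0 in all 4 AP20187 libraries, while vehicle mice 1 to 5 had 8, 0, 16, 47 and 16 counts. Naive vehicle 2 at 0 means that the naive groups overlapped. Levels were 0.337 ± 0.105 CPM in DMM AP20187, 0.0421 ± 0.0587 in DMM vehicle (n = 5 each) and 0.262 ± 0.291 in naive vehicle (n = 5).

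Sftpb was less tied to a group. Mice 58 to 62 of DMM AP20187 had 42, 21, 26, 23 and 24 counts. DMM vehicle 64 had 37, DMM vehicle 63 had 10, DMM vehicle 33 had 2, and mice 32 and 34 had 0. Among naive mice, AP20187 1 and 5 had 6 and 24, vehicle 4 had 10, and the other 6 libraries had 0. The DMM vehicle range thus reached above 4 of the 5 DMM AP20187 libraries, and the means were 0.418 ± 0.128 and 0.145 ± 0.232 CPM.

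Sftpd was seen in a single library, DMM AP20187 58, with 20 counts (0.303 CPM), and was listed at 0 in the other 18. Per gene length, in the FPKM deposited by the authors, Sftpc was the most abundant of the surfactant genes in DMM AP20187 at 1.34 ± 0.667, against 0.195 ± 0.0694 for Sftpb, 0.111 ± 0.0366 for Sftpa1 and 0.0252 ± 0.0564 for Sftpd (SD, n = 5). Sftpc was above the other 3 in each of the 5 mice, by least in mouse 62 (0.226, against 0.170 for Sftpb).

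Scgb1a1 was the most widespread of the lung genes, with counts in 18 of 19 libraries, and the highest of the 9 by mean FPKM in each group. This did not hold in every library. Scgb3a1 had the higher FPKM in DMM AP20187 62 (1.36 against 0.292) and in naive AP20187 3 and 4. Krt10 was above Scgb1a1 in DMM vehicle 32 and 33 and in naive vehicle 2 and 5. Mice 58 to 62 of DMM AP20187 had 363, 432, 141, 180 and 10 counts, and DMM vehicle mice 32, 33, 34, 63 and 64 had 15, 8, 28, 41 and 57. Mouse 62 thus lay inside the vehicle range and the other 4 above it. Naive AP20187 mice 1, 3, 4 and 5 had 110, 108, 67 and 104, and naive vehicle mice 1 to 5 had 12, 13, 30, 221 and 0. Naive vehicle 4 exceeded every naive AP20187 library, and the other vehicle mice were below all of them. Mean levels were 3.37 ± 2.52 CPM in DMM AP20187, 0.446 ± 0.291 in DMM vehicle, 1.63 ± 0.351 in naive AP20187 and 0.871 ± 1.51 in naive vehicle. In FPKM these were 7.08 ± 5.38, 0.933 ± 0.646, 2.94 ± 0.594 and 1.78 ± 3.12.

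Scgb3a1 was present with AP20187 in both surgery states. Its counts were 97, 107, 145, 131 and 56 in DMM AP20187 58 to 62, and 67, 180, 169 and 65 in naive AP20187 1, 3, 4 and 5. It was listed at 0 in all 5 DMM vehicle libraries and in 4 of the 5 naive vehicle libraries, and naive vehicle 3 had 6 counts. Every AP20187 library was above every vehicle library. The level was 1.63 ± 0.485 CPM in DMM AP20187 (n = 5) and 2.02 ± 1.06 in naive AP20187 (n = 4), and these 2 groups overlapped. Naive vehicle 4, which was high in Sftpc, Sftpa1 and Scgb1a1, had no count of Scgb3a1. Its relative Scgb3a2, a further secretoglobin of the airways, had only 9, 7, 4 and 10 counts in DMM AP20187 58, 59 and 60 and naive vehicle 4 and was at 0 elsewhere, a different set of libraries.

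The basal keratins were either high or nearly missing. Krt14 had 267, 117 and 126 counts in DMM AP20187 58, 59 and 60, and 0 in mice 61 and 62 of the same group. It was at 0 in all DMM vehicle libraries, and had 11 counts in naive AP20187 4 and 8, 11 and 53 in naive vehicle 2, 3 and 4. Krt5 had 206, 150 and 123 counts in DMM AP20187 58, 59 and 60, 72 in naive vehicle 4, 4 in DMM vehicle 64 and 0 in the other 14 libraries. DMM AP20187 therefore spanned 0 to 4.05 CPM for Krt14 (mean 1.54 ± 1.67) and 0 to 3.12 CPM for Krt5 (mean 1.44 ± 1.39), an SD about as large as the mean. The ratio of Krt5 to Krt14 counts in the 4 libraries with both was 0.772, 1.28, 0.976 and 1.36. Counts of keratins can be shared between close relatives of the family, so small values of one keratin are uncertain.

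Krt10 did not share this pattern and was found in all 19 libraries. It had 99, 72, 47, 67 and 70 counts in DMM AP20187 58 to 62, and 99, 72, 61, 180 and 108 in DMM vehicle 32, 33, 34, 63 and 64. Naive AP20187 1, 3, 4 and 5 had 79, 219, 107 and 101, and naive vehicle 1 to 5 had 36, 65, 93, 72 and 80. The operated groups overlapped, at 1.09 ± 0.285 and 1.57 ± 0.705 CPM, whereas the 4 naive AP20187 libraries (2.12 ± 1.06) lay above all 5 naive vehicle libraries (1.01 ± 0.263). Krt1, its partner in epidermis, had 10 to 131 counts in every library, and Lor, which encodes the cornified envelope protein loricrin, had at most 30. In the 4 libraries high in Krt5 and Krt14, Krt1 had 25, 39, 69 and 40 counts and Lor 0, 0, 10 and 16, inside the range of the other libraries. The 14 other genes of the suprabasal and cornified keratinocyte list summed to 11.6, 9.21, 12.2 and 17.4 CPM in these 4 libraries and to 10.1 to 35.0 CPM in the other 15. Lor was near the floor in many libraries, and no test was made of these genes against the basal keratins, which are called by their gene names here.

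Other genes were looked at in the same libraries after these values were known. Krt6a, a keratin of stratified epithelia under stress and of hair follicles and tongue, had 290, 146, 140 and 58 counts in DMM AP20187 58, 59 and 60 and naive vehicle 4, and at most 4 elsewhere. Krt6b had 78, 18, 15 and 6 counts in those libraries and 0 in the other 15. Krt16 had 33, 5, 26 and 7 there and 0 in the other 15. Krt17 had 150, 75, 52 and 86 there and at most 18 in any other library. Krt13 and Krt4, keratins of mucosal stratified epithelium, reached only 21 and 52 counts in any library, and Krt15 had 8 at most. Trp63, the master transcription factor of basal epithelial cells, had 8 to 140 counts in all 19 libraries, with 63, 90, 47 and 31 in the same 4, inside the range of the rest. The other genes of the basal keratinocyte list were mixed. The desmosomal gene Dsg3 had 28, 12, 28 and 23 counts in the 4 libraries and up to 16 elsewhere, in naive AP20187 4. The hemidesmosomal gene Col17a1 was at 0.773, 0.892, 0.855 and 0.952 CPM there, but also at 0.832 CPM in DMM AP20187 62, which had neither keratin. The integrin genes Itga6 and Itgb4 were at 62.6 to 112 and 84.6 to 134 CPM in the 4 libraries, and reached 93.1 and 151 CPM in naive AP20187 3. Lamb3, a laminin gene, was highest in DMM AP20187 62 (3.48 CPM). The plakin gene Dst was lowest in DMM AP20187 58 (73.3 CPM) and highest in naive vehicle 2 (1690 CPM). These libraries also had the lowest and the highest sum of sensory neuron genes (583 and 6665 CPM). Itga6, Itgb4 and Dst were abundant in every library (at least 1801, 2252 and 4838 counts), so their levels do not single out keratinocytes in this tissue. The lung chemokine gene Cxcl15 had 20, 20, 6, 4 and 10 counts in DMM AP20187 58 to 62 and 8 in naive vehicle 4, and was at 0 in the other 13 libraries. These are the 6 libraries with the highest Sftpc. Further lung genes were mixed. Scgb3a2 had counts in 4 of these 6 libraries and in no other. Cldn18, a tight junction gene of alveolar cells, had 6, 0, 11, 10 and 4 counts in DMM AP20187 58 to 62, 4 in naive vehicle 4, 3 in naive AP20187 3 and 4 in naive vehicle 2. Lamp3, of type II cells, was highest in naive AP20187 1 (17 counts) and at 0 in DMM AP20187 59 and 62 and naive vehicle 4. The water channel gene Aqp5 was at 0 in DMM AP20187 62 and naive vehicle 4 and had 8 in 4 libraries outside the DMM AP20187 group.

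**Figure D2:**
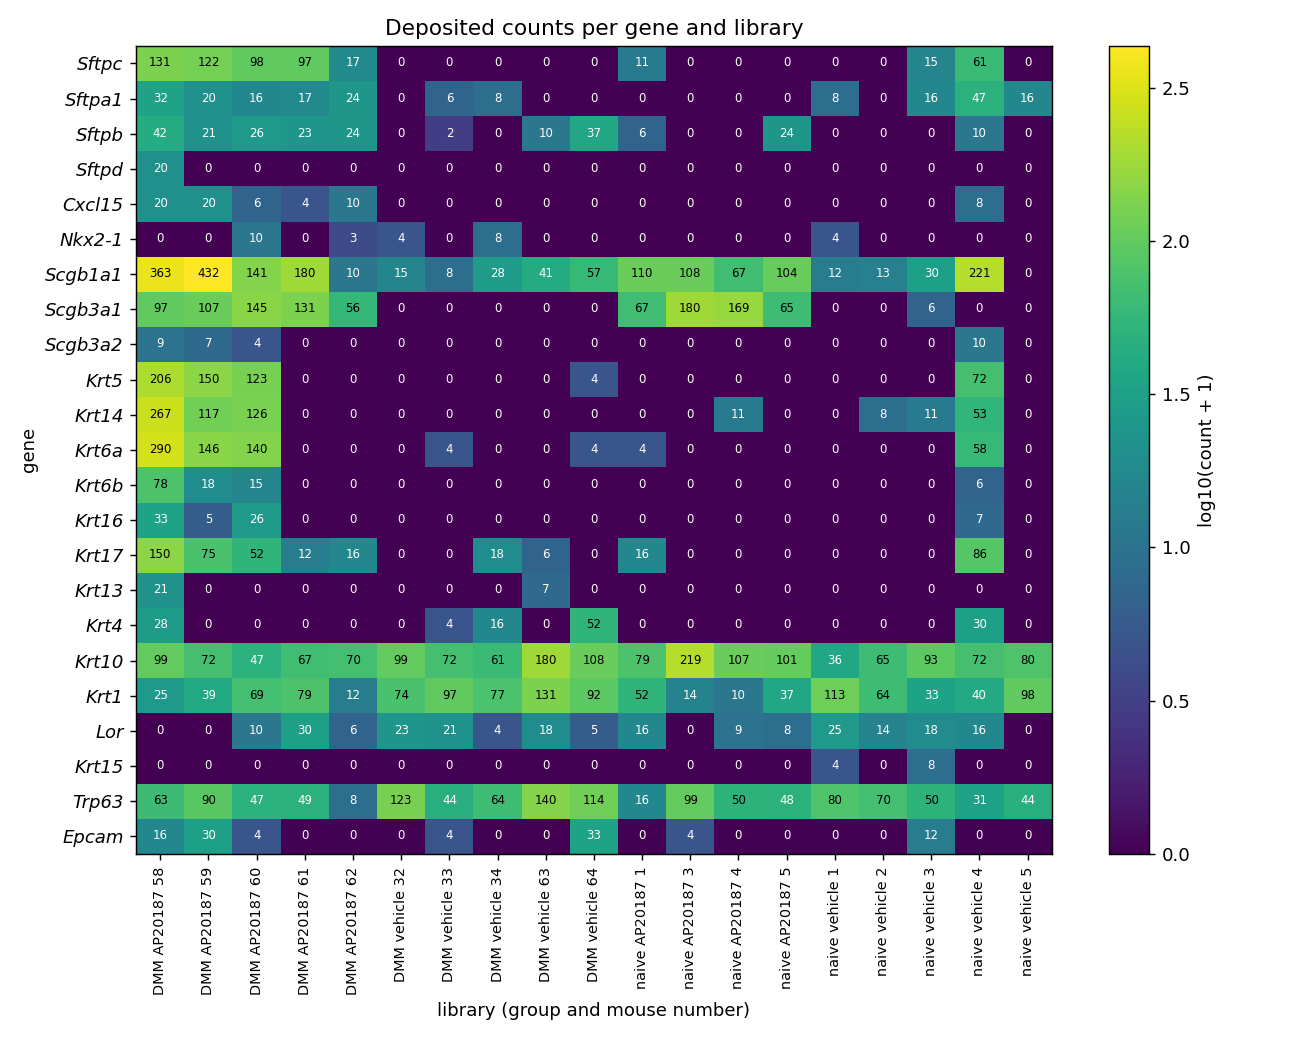
Deposited counts (numbers in the cells, colour as log10 of count plus 1) of the 9 genes and 14 further lung and epithelial genes, in rows, over the 19 libraries, in columns. Krt5, Krt14, Krt6a, Krt6b, Krt16 and Krt17 were highest in DMM AP20187 58, 59 and 60 and naive vehicle 4, Scgb3a1 was high in the AP20187 libraries of both surgery states, and Krt10 and Trp63 had counts in every library.

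The surfactant genes and the basal keratins were only partly shared between libraries. Summed over the 4 surfactant genes, levels were 3.41, 2.38, 2.14, 2.05 and 1.10 CPM in DMM AP20187 58 to 62 and 1.90 in naive vehicle 4, and at most 0.544 in the other 13 libraries. Krt5 and Krt14 together were 7.17, 3.90 and 3.80 CPM in DMM AP20187 58, 59 and 60 and 2.02 in naive vehicle 4. DMM AP20187 61 and 62 had surfactant genes with neither keratin. Over the 19 libraries, Spearman's correlation was 0.73 between Krt14 and Krt5, 0.79 between Sftpc and Sftpa1, 0.67 between Sftpc and Krt5, 0.47 between Sftpc and Scgb3a1 and -0.29 between Sftpc and Krt10. These are descriptions over libraries that share many zeros and the same 4 groups.

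**Figure D3:**
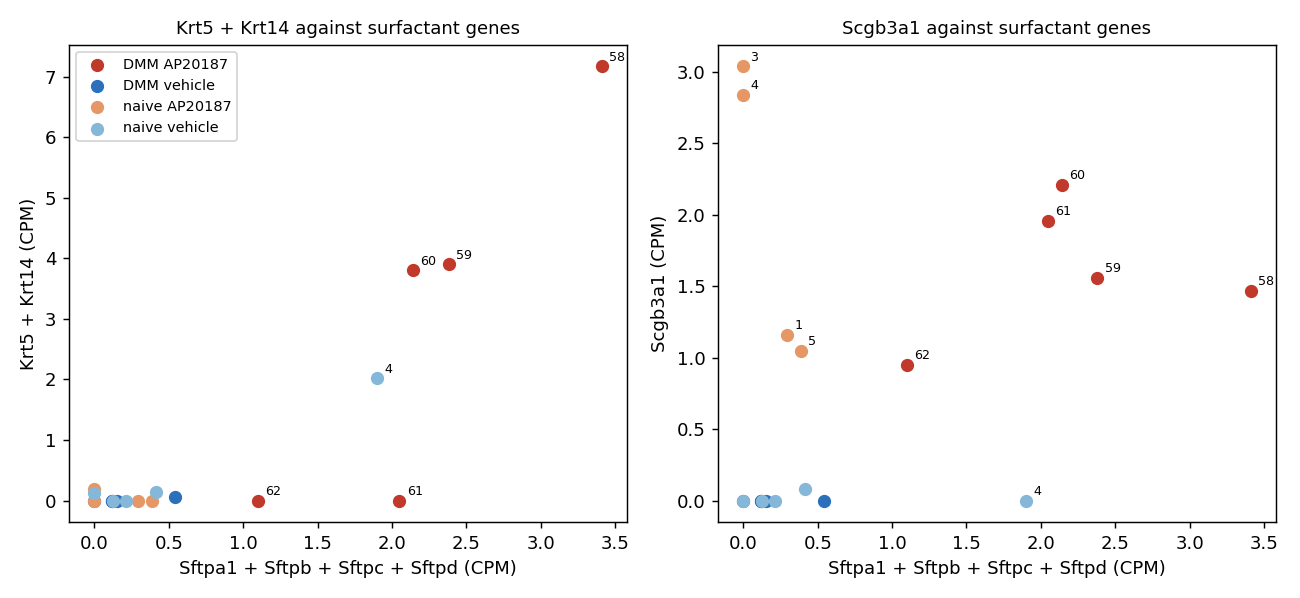
Each point is a library, coloured by group and labelled by mouse number where a value exceeds 0.6 CPM. The horizontal axes give the summed CPM of the 4 surfactant genes, and the vertical axes give Krt5 plus Krt14 (left) and Scgb3a1 (right) in CPM. On the left 4 libraries stand out from the axes, and on the right naive AP20187 3 and 4 had Scgb3a1 without surfactant genes while naive vehicle 4 had the reverse.

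The genes whose pattern was most like that of each member were named by Spearman's correlation of log2 CPM over the 19 libraries, as a description that leaves out predicted genes and members below 0.2 CPM on average. For Scgb3a1 these were Ccl8, Itih4, Serpinb9 and Il1r1 (0.90 each) and Utp23 (0.89). Ccl8, a chemokine of tissue macrophages, was at 43.4 ± 31.0 CPM in DMM AP20187 (SD, n = 5) and 52.6 ± 36.3 in naive AP20187 (n = 4), and at 2.54 ± 1.20 and 2.21 ± 2.02 with vehicle (n = 5 each). Itih4, which encodes a secreted plasma protein, was at 4.95 ± 3.89 and 4.90 ± 2.48 CPM with AP20187 and at 0.0725 ± 0.162 and 0.0392 ± 0.0592 with vehicle. Krt5 was most like Krt6a (0.85) and Krt75 (0.79), both type II keratins, followed by Tmc4 (0.77), Pi4k2b (0.76) and Prps1l1 (0.75), which are not keratins. Krt14 was most like Capns2 (0.80), Il22ra1 (0.77) and St8sia2 (0.74), followed by Krt5 (0.73) and Cphx1 (0.72). For Sftpc they included Pcsk7, Hps1, Usp44 and Riok1 (0.82 each), and none of these 4 is a lung marker. For Scgb1a1 they were Stab1 (0.89), Lrp4 (0.88), Tm4sf1 and Cdc42ep5 (0.86 each) and Sfxn2 (0.84). For Krt10 they were Asb5 (0.82), Mxra7 (0.80), Rps27 and Smim19 (0.79 each) and P3h2 (0.78).

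The naive mice are not in the comparison for which the genes are known to have been picked, so AP20187 was compared with vehicle in them by edgeR's quasi-likelihood test, fitted over all 22778 genes that passed the filter on low counts. Of all genes 11.2% had an adjusted p under 0.05, 8.61% higher and 2.57% lower with AP20187. Of the 9 members 8 passed the filter, but 5 of them (Sftpc, Sftpb, Sftpa1, Krt14 and Krt5) only with the DMM libraries included, and the naive comparison of these 5 is a description. Of the other 3, Scgb3a1, Scgb1a1 and Krt10, 1 had an adjusted p under 0.05. Scgb3a1 was higher, at least 45.5-fold over the floor of naive vehicle (fitted log2 fold change 6.74, SE 0.93, adjusted p 0.000844), in 4 of 4 libraries. Over 17 alternatives its adjusted p ran from 1.74e-13 to 0.0151, and its fitted size depends on the 6 counts of naive vehicle 3 (10.03 without that library). Scgb3a1 entered the fit through its AP20187 libraries, since no vehicle library had more than 6 counts, and its naive values may have been known when it was chosen. This p is therefore no independent support for a difference. Mean Sftpa1 in naive vehicle was at least 5.20-fold above the floor of naive AP20187, and 2.74-fold without naive vehicle 4. In the fit of all 4 groups its adjusted p was 0.0253, which became 0.0667 without naive AP20187 1, 0.0744 without naive AP20187 3 and 0.0899 on log2(FPKM + 1), in a range of 0.00138 to 0.0899 over its alternatives, and it is not counted as a call.

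Krt10 and Scgb1a1 did not pass in naive mice. For Krt10 the fitted value was 1.07 on the log2 scale (SE 0.37, adjusted p 0.0681), and DESeq2 gave 1.08 with adjusted p 0.0274, in a range of 0.0274 to 0.33 over its alternatives. Without naive AP20187 3 it was 0.66 (adjusted p 0.33). Groups that did not overlap in either direction, as those of Scgb3a1 and Krt10 did not, made up 15.5% of all genes, and those higher with AP20187 9.39%. Scgb1a1 had 0.91 (SE 1.02, adjusted p 0.566). Without naive vehicle 4 it was 3.03 with adjusted p 0.0406, in a range of 0.0406 to 0.734, so its call turned on that library. Without a test, the naive vehicle means of Sftpc, Krt14 and Krt5 were at least 4.70-fold, 4.47-fold and 4.61-fold above the floor of naive AP20187. Without naive vehicle 4 the Sftpc mean was 0.992 times and the Krt14 mean 1.34 times that floor, and Krt5 was at 0 in both groups. The naive AP20187 mean of Sftpb was at least 2.77-fold above the floor of naive vehicle, and without naive AP20187 5 both groups were under the floor.

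In operated mice the same contrast had been used to choose the genes, so nothing is read from it. There, 23.8% of all genes had an adjusted p under 0.05 (11.3% higher, 12.4% lower), and 12.9% had groups that did not overlap (8.71% higher). Sftpc, Sftpa1 and Scgb3a1 were the members whose groups did not overlap. Scgb3a1 was at least 36.1-fold and Sftpa1 at least 7.45-fold above the floor of DMM vehicle. Krt14 and Krt5 means were at least 34.0-fold and 31.8-fold above it, from 3 of 5 libraries, and that of Krt14 was 20.1-fold above it without DMM AP20187 58. Scgb1a1 and Sftpb means were 7.54 and 2.88 times those of DMM vehicle. For Sftpb this turned on DMM vehicle 64: the fitted log2 fold change was 1.51 with it and 3.15 without it, 5.14 against vehicle mice 32 to 34 and 0.26 against mice 63 and 64. The Krt10 mean was 0.697 times that of DMM vehicle. Sftpd, with counts in 1 library, did not pass the count filter. The median fitted log2 fold change of the 8 tested members was -0.66 in naive and 4.82 in operated mice, against -0.07 and -0.10 over all genes. These medians describe only members that passed the filter and support nothing. In operated mice the highest fitted values, those of Scgb3a1, Krt14 and Sftpc, were against a vehicle group at 0.

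Lists of further markers were compared in naive mice by the same test, leaving out the 9 genes. Of all genes, 8.61% were higher and 2.57% lower with AP20187 there. With lists this short, 1 or 2 calls are not read as a result about a cell type. Of 6 tested alveolar type II genes, 1 was higher with AP20187, Napsa (1.94 on the log2 scale, adjusted p 0.033), an aspartic protease gene also active in immune cells, and none was lower, and 6 of the 9 genes of that list that are no members, such as Abca3, Lpcat1 and Etv5, had over 3 counts in all 19 libraries of either treatment. Of 6 alveolar type I genes, 2 were higher and 1, Akap5, was lower (-1.31, adjusted p 0.0424). Ager, the receptor for advanced glycation end products, was among the higher ones (log2 fold change 1.47, adjusted p 0.0198), and had 28 to 299 counts in all 19 libraries. Pdpn, a gene of lymphatic and stromal cells too, was the other (1.55, adjusted p 0.0121). Of 4 airway secretory genes, Cbr2, also known from macrophages, was higher (2.05, adjusted p 0.0254) and Aldh1a7 lower (-0.96, adjusted p 0.0363). None of 8 ciliated cell genes, 7 basal keratinocyte genes, 9 suprabasal keratinocyte genes, 7 hair follicle genes or 21 other keratins passed in either direction. Of 14 general epithelial genes 1 was higher, the protease gene St14 (1.53, adjusted p 0.0433). Epcam, the usual surface marker of simple epithelia, had counts in 7 of 19 libraries, with 16, 30 and 4 in DMM AP20187 58, 59 and 60, 33 in DMM vehicle 64 and 0 in naive vehicle 4.

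Genes of other organs were counted in the same way, beside the same shares of all genes (8.61% higher and 2.57% lower). In naive mice none of 3 pancreas, 3 intestine or 5 kidney tubule genes passed, and of 8 liver genes 1 was lower, Ttr (-1.25, adjusted p 0.00423). Alb, the serum albumin gene of liver, was also on or off by library: it had 615, 564 and 521 counts in DMM AP20187 60, 61 and 62, 199 and 358 in DMM vehicle 63 and 64, 276 in naive vehicle 1, 3 in DMM AP20187 59 and 0 in the other 12. It was thus at 0 in DMM AP20187 58 and naive vehicle 4, which were high in Krt5, Krt14 and Sftpc. DMM AP20187 60, also high in these genes (123, 126 and 98 counts), had the most Alb of all libraries. DMM AP20187 61 and 62 had Alb and Sftpc (97 and 17 counts) with neither keratin. Granulocyte and muscle genes did pass in naive mice. There 9 of 10 neutrophil granule genes and 3 of 8 skeletal muscle genes (Mylpf, Tnnt3 and Tnnc2) were higher with AP20187, as Scgb3a1 was. In operated mice 8 of 10 granule genes were higher with AP20187, where 11.3% of all genes were. Of the 8 muscle genes 0 were higher there and 2 were lower, where 12.4% of all genes were. DMM vehicle 32, at 1862 CPM of muscle genes, had no count of Scgb3a1. The part of granulocyte and muscle genes in the Scgb3a1 result was not tested.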

How the data were processed

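Poly(A) RNA of 19 mice was sequenced from stranded libraries, per the labels' protocols. The submitters' processing notes name cutadapt, HISAT2, StringTie and GRCm39, with no version or role. Gene-level counts were deposited in a table of 56691 entries and again, beside FPKM, in one of 36682 genes, per the file headers. Counts of the 9 members were equal in both, and the table with identifiers was used. The larger one had 6448 entries without a name, which were not used.

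Members and marker lists were chosen with earlier results of these data known. Counts were fitted with edgeR 4.0.16 (R 4.3.3), quasi-likelihood test, TMM scaling, filterByExpr with a minimum count of 10, and 1 model of 4 groups over 19 libraries. Two-sided p-values were adjusted by Benjamini-Hochberg across every gene in the fit, with 0.05 as threshold. The SE is the log2 fold change divided by the square root of F. The fit was tested on simulated data. Alternatives were DESeq2 1.42.0, library size only, no filter, limma 3.58.1 on log2(FPKM + 0.1) and log2(FPKM + 1), a fit of the 2 groups alone, a replicate block, parts of DMM vehicle and leaving out each library. Named genes were the members, the 3 highest of each list, set defining markers and the genes of most similar pattern. Other genes were chosen after their values were seen: Krt6b, Krt16, Krt17, Krt13, Krt4, Cxcl15, Dsg3, Col17a1, Lamb3, Lamp3, Aqp5, Cldn18, the called members of lists and the motifs. Each library was 1 mouse. One gene of similar pattern is not reported here.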

Additional observations from a re-analysis of the deposited data

Results flagged for a closer look

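Of 28 combinations of gene and group with any count, 12 had a library far from the others of its group by Dixon's ratio, the gap to the nearest library over the range of the group. Chance gives this for about 1 in 20 groups, and groups of mostly zeros meet it easily. Naive vehicle 4 was the library in 6 of them. There Sftpc was at 0.984 CPM (next 0.2), Sftpb at 0.161 (next 0), Sftpa1 at 0.758 (next 0.214), Scgb1a1 at 3.56 (next 0.4), Krt14 at 0.855 (next 0.147) and Krt5 at 1.16 (next 0).

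DMM vehicle 64 was the library for Sftpb at 0.544 CPM (next 0.151) and for Krt5 at 0.0589 (next 0). Single libraries with counts in their group were DMM AP20187 58 for Sftpd (0.303 CPM), naive AP20187 1 for Sftpc (0.19), naive AP20187 4 for Krt14 (0.185) and naive vehicle 3 for Scgb3a1 (0.08). Values under 0.1 CPM rest on 6 counts or fewer.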

How the results depend on the processing

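In naive mice Scgb3a1, Scgb1a1 and Krt10 kept their direction in all 17 alternatives each. Sftpc, Sftpb, Sftpa1, Krt14 and Krt5 could not be tested in the fits restricted to the naive mice, where they failed the filter, nor Krt5 without naive vehicle 4. All 28 group means of the members moved by less than 1 SD with library size only, with DESeq2's size factors and with FPKM, which was first multiplied, gene by gene, so that its mean over all libraries equalled the mean CPM. The number of genes called in naive mice, 2548, was 4356 with DESeq2, 4225 on log2(FPKM + 0.1), 4147 on log2(FPKM + 1) and 994 to 3449 with 1 library left out. It fell by over 1.5 times without naive AP20187 1 (1191) or 3 (994) or naive vehicle 1 (1368), 2 (1292) or 5 (1566). Higher genes were 77.0% of the calls (82.3% with no filter), 62.9% by library size only and 64.3% with DESeq2, and 39.6% and 39.2% on the FPKM scales. The median of all genes was -0.07, -0.14 by library size only and -0.21 on log2(FPKM + 0.1). The replicate block over naive mice 1, 3, 4 and 5 of both treatments gave 2352 calls and, for Scgb3a1, 7.09 (adjusted p 0.0151). Without the block the same 8 libraries, a choice made after seeing the data, gave 1388. Same-numbered mice deviated together with correlations of 0.00781, 0.254, -0.0532 and 0.223, and not every library was most like its own number, so the numbers were not taken as pairs. In operated mice the 5410 calls became 8450 against vehicle mice 32 to 34, 1156 against mice 63 and 64, and 3212 to 7677 with 1 library left out, the lowest without DMM AP20187 58 (3212) or DMM vehicle 33 (3407) or 32 (3419). Higher genes were 47.7% of these calls, and 58.4% when only the 2 groups were fitted. The causes were not tested. A gene listed at 0 may lie anywhere up to the floor of 3 counts, or above it where 1 fragment stands for more than 3 counts.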
